A study of Mus musculus with 10 samples.

Results

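The inflammasome and NF-κB cytokine genes examined here are 10 mouse genes chosen by name, namely Nlrp3, Pycard, Casp1, Il1b, Il18, Tnf, Il6, Nfkb1, Rela and Nfkbia, of the 23462 named genes on the array. Every array probe whose RefSeq accession belongs to 1 of these genes was taken, whatever its values, which gave 14 probes. The genes were chosen with earlier results of these data known. Hippocampal RNA was taken from 5 mice of the PGC-1αf/f group and 5 of the nPGC-1α group on a C57BL/6 background, all labelled as males of 12 weeks under basal conditions, with 1 array per mouse. Mice of both groups carry a PGC-1α transgene at Rosa26 behind a floxed PGK-neo-STOP cassette. The nPGC-1α mice also carry Cre recombinase driven by Eno2, a neuronal promoter, which removes the cassette, and the PGC-1αf/f mice are littermates without Cre. No mice with Cre alone were among the groups, so the presence of Cre and that of active transgene cannot be told apart. The comparison asks whether genes of the inflammatory machinery differ in the hippocampus when neurons overexpress PGC-1α without any insult.

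NF-κB is a dimeric transcription factor held in the cytoplasm by IκB proteins until a kinase complex marks the inhibitor for destruction. The freed dimer turns on cytokine genes, inflammasome components and its own inhibitor. Inflammasomes are assembled from a sensor, an adaptor and a protease, and the protease cuts the precursors of interleukin-1β and interleukin-18 into their secreted forms. In the brain, interleukin-1β and tumour necrosis factor are made mostly by microglia and infiltrating leukocytes, and not by the neurons in which Eno2 drives Cre. The arrays measure messenger RNA and say nothing of cleavage or of NF-κB in the nucleus.

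Array brightness, taken as the 75th percentile of processed signal, ran from 3882.93 to 5079.58 units in PGC-1αf/f mice and from 4223.1 to 5253.22 units in nPGC-1α mice. The arrays of the nPGC-1α mice were noisier and detected fewer probes. Between 74.5 and 81.5% of gene spots were well above background in PGC-1αf/f mice, and between 67.2 and 73.4% in nPGC-1α mice (p 0.00794 by an exact permutation test, or 0.0397 after adjustment over 10 measures). Ppargc1a, the gene of PGC-1α, lay between 2.06 and 2.34 on all 10 arrays and differed by 0.00 (limma adjusted p 0.99), so it did not set the groups apart. Whether its probes read the transgene is not known, and every direction below rests on the labels. All 4 Y-linked genes examined were detected on 4 arrays, those of replicate 1 of PGC-1αf/f and of replicates 1, 3 and 5 of nPGC-1α. On that of PGC-1αf/f replicate 2, 1 of them was detected, and on the others 0, although every mouse is labelled male. The labels give the cell type as neuron, yet 10 microglia, 8 astrocyte and 7 endothelial markers were well above background on all 10 arrays, as in whole tissue. In such RNA, fewer cells of a type and less RNA per cell cannot be told apart.

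The stretch just before the start site is shown for the cytokine genes Il1b, Tnf and Il6 and for the inhibitor gene Nfkbia, because NF-κB regulates these genes and their promoters hold different letters. Each sequence runs 5′ to 3′ along the strand of its gene over the 250 bases before the RefSeq start site (GRCm38.p6). Capitals mark matches to GGNNNTTCC on either strand, a simplified form of the NF-κB motif.
Il1b, chr2:129371140-129371389, minus strand: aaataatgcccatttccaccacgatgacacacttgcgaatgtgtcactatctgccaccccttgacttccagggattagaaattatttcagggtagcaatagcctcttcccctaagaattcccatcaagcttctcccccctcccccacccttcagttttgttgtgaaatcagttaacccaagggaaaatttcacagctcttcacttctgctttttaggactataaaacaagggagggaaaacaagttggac
Tnf, chr17:35202008-35202257, minus strand: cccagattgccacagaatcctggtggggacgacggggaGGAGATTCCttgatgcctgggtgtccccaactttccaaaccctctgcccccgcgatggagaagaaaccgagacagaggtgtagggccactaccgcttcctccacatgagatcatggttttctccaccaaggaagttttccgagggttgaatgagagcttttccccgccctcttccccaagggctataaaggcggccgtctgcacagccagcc
Il6, chr5:30012864-30013113, plus strand: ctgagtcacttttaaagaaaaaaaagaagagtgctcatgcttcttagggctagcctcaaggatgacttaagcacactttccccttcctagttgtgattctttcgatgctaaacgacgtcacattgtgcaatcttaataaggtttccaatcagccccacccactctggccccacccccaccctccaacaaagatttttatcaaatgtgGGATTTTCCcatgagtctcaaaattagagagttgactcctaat
Nfkbia, chr12:55492648-55492897, minus strand: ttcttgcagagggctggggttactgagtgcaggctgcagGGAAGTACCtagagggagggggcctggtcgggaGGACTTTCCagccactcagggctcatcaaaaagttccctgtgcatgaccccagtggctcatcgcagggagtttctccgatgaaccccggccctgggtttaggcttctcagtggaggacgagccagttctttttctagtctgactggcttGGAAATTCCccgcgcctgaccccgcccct

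The Nfkbia window held 3 matches, the first bases of which lie at -211, -178 and -29 from the start site, and the match at -29 reads the same motif on both strands. Tnf had 1 match at -212 and Il6 had 1 at -43. The Il1b window held none, which says only that these letters are not in this window. Windows were found for 9 of the 10 genes, with 2 start sites for Nlrp3, and 5 of the 10 windows held the motif, against 15.7% of all 32851 windows in the table. The other matches lay before the Nlrp3 start sites, and the windows of Pycard, Casp1, Il18 and Rela had none. TATAAA was found in the windows of Il1b, at -31, and Tnf, at -29, and in 7.59% of all windows.

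Levels are log2 values relative to the 75th percentile of the same array, so that 0 is that percentile, and a difference is the nPGC-1α mean less that of PGC-1αf/f on the log2 scale. Levels of different probes were not compared, since probes differ in brightness. Of the 14 probes, 8 probes, which read 7 genes, exceeded background clearly on every array, and 11 probes of 9 genes passed the filter for testing. Il6 had no probe that passed. No member differed at an adjusted p of 0.05 in limma, over 39142 probes tested, and the smallest adjusted p was 0.387. At an unadjusted p of 0.05, 1 member probe was higher, an Il1b probe, and 1 was lower, that of Nfkbia. These were 2 of 11, where 11.9% of all probes passed in either direction (3.39% higher and 8.52% lower) and 0.00255% passed the adjusted threshold. Of the tested member probes, 7 differences were above 0 and 4 below, with a median of 0.10 against -0.04 over all probes. The groups overlapped for all 14 member probes, against 2.74% of probes without overlap.

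**Figure D1:**
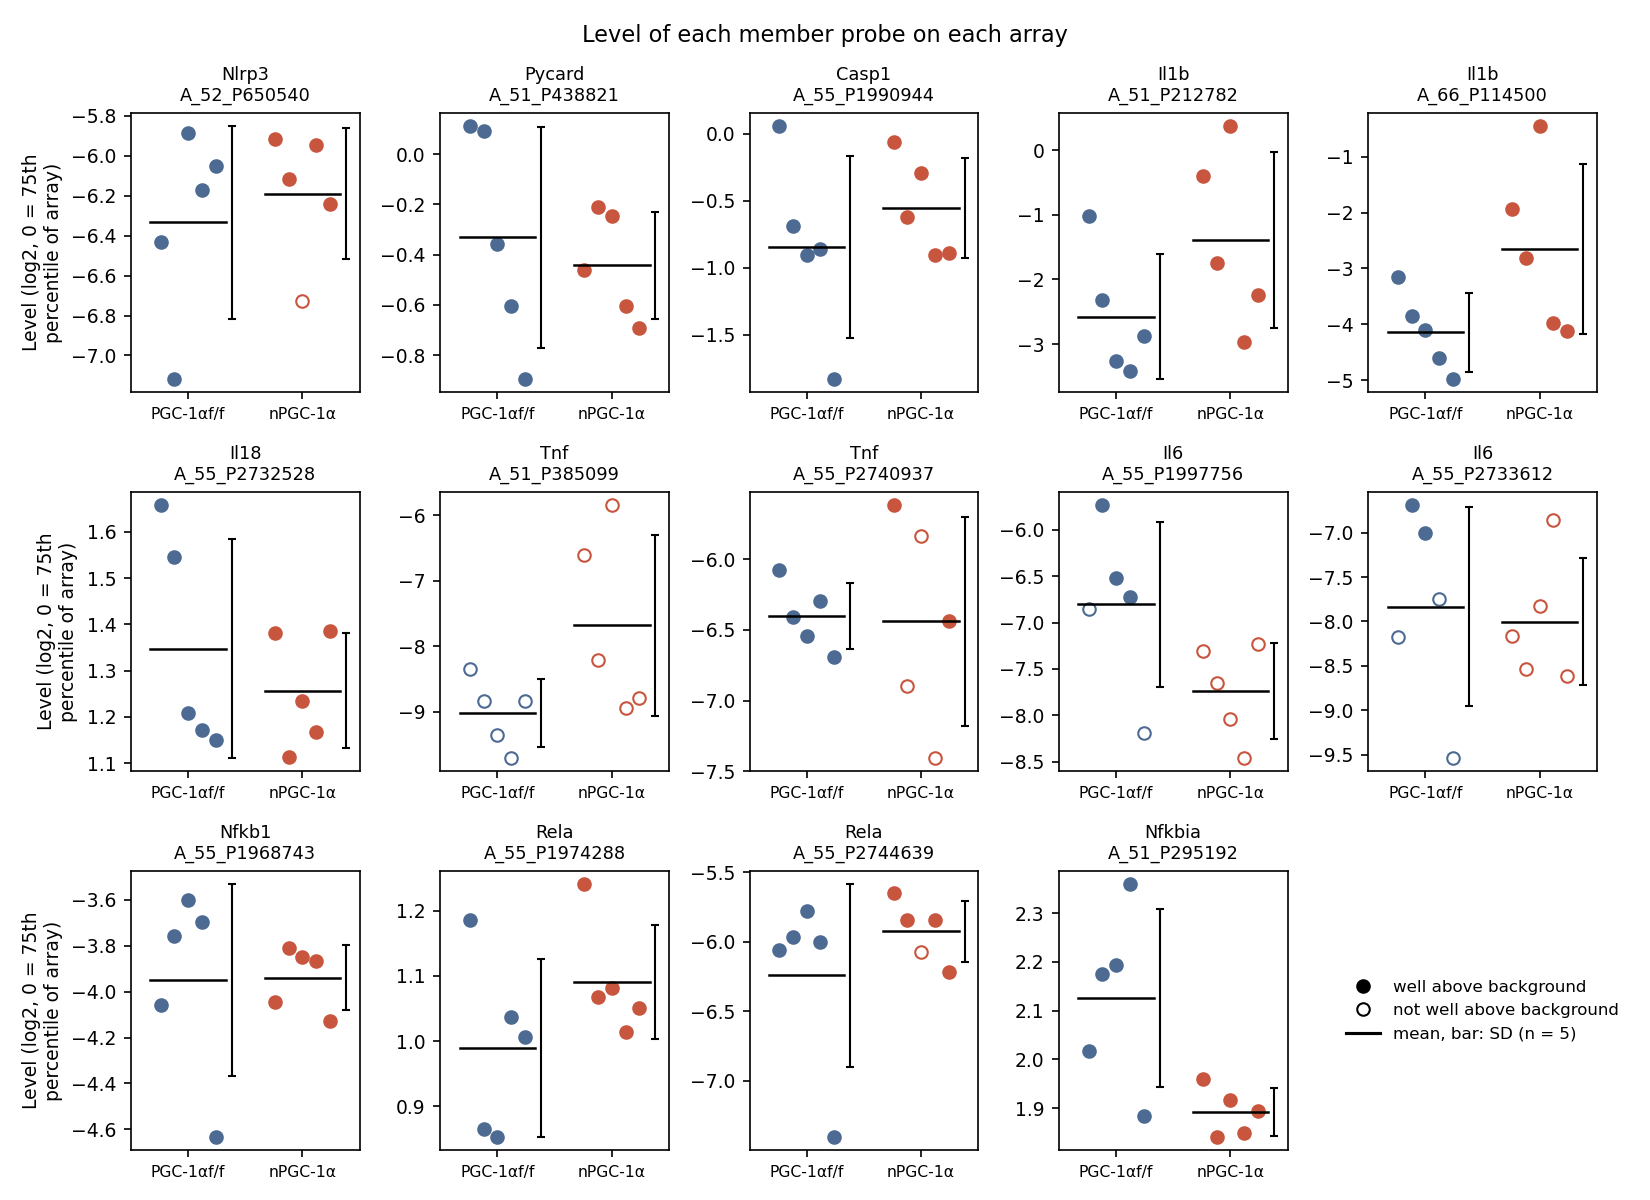
Level of each of the 14 member probes on each array (y axis, log2 relative to the 75th percentile of the array, a separate scale per panel) in PGC-1αf/f and nPGC-1α mice, with filled points well above background, open points not, lines for the mean and bars for the SD (n = 5). The groups overlap in every panel, and the points of Il1b spread the most among the probes detected on all 10 arrays.

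Il1b, which encodes the precursor of interleukin-1β, had the widest range between mice. By probe A_51_P212782 its level was -1.01, -2.31, -3.26, -3.42 and -2.88 in PGC-1αf/f replicates 1 to 5 and -0.40, -1.75, 0.38, -2.96 and -2.23 in nPGC-1α replicates 1 to 5. The highest levels were those of nPGC-1α replicates 3 and 1, followed by PGC-1αf/f replicate 1. The nPGC-1α replicates 2, 4 and 5 lay within the range of the PGC-1αf/f mice. The group means were -2.57 ± 0.97 and -1.39 ± 1.36 (SD, n = 5 each). The difference of 1.18, or 2.27-fold, had an SE of 0.64 and a 95% interval from -0.24 to 2.60, and it did not pass (limma p 0.0937, adjusted 0.498).

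The second Il1b probe, A_66_P114500, gave -3.15, -3.84, -4.11, -4.60 and -4.99 in the PGC-1αf/f mice and -1.94, -2.81, -0.45, -3.97 and -4.12 in the nPGC-1α mice. All 5 nPGC-1α mice lay above the PGC-1αf/f mean of -4.14 ± 0.71 (SD, n = 5), but replicates 4 and 5 lay below PGC-1αf/f replicate 2. The difference was 1.48, or 2.80-fold, with an SE of 0.65 and an interval from 0.06 to 2.91 (limma p 0.0424, adjusted 0.404), and the exact permutation p was 0.0794. The call of the second probe held without PGC-1αf/f replicate 1 or nPGC-1α replicate 4 or 5, and was lost without any 1 of the other 7 mice. Without nPGC-1α replicate 3, the differences of the 2 probes were smallest, at 0.74 and 0.93, and of the fits without 1 mouse, the first probe passed the unadjusted threshold in those without PGC-1αf/f replicate 1 and without nPGC-1α replicate 4, at 1.57 each. Within slide 1, which held replicates 1 to 4 of the 2 groups in different rows, they were 1.32 and 1.64. On slide 2, with 1 mouse per group in the same row, they were 0.64 and 0.87.

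Il18, the other cytokine activated by caspase-1, showed little spread. Its level was 1.66, 1.55, 1.21, 1.17 and 1.15 in the PGC-1αf/f mice and 1.38, 1.11, 1.23, 1.17 and 1.39 in the nPGC-1α mice. The nPGC-1α values all fell inside or just below the range of the PGC-1αf/f values. The difference was -0.09 with an interval from -0.36 to 0.18 (limma adjusted p 0.788).

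Among the inflammasome components, Nlrp3 encodes the sensor, Pycard the adaptor ASC and Casp1 the protease. None of the 3 passed the test. The Nlrp3 level was -6.43, -7.12, -5.89, -6.17 and -6.05 in the PGC-1αf/f mice and -5.92, -6.12, -6.73, -5.95 and -6.24 in the nPGC-1α mice. The probe was not well above background in nPGC-1α replicate 3, and the difference of 0.14 spanned -0.37 to 0.66 (limma adjusted p 0.83). On these arrays the lowest level of any spot well above background was -7.51 to -6.56 in the PGC-1αf/f group and -6.62 to -5.75 in the nPGC-1α group, so Nlrp3 was read close to the background.

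Pycard had levels of 0.11, 0.09, -0.36, -0.61 and -0.90 in the PGC-1αf/f mice and -0.46, -0.21, -0.25, -0.60 and -0.69 in the nPGC-1α mice. The nPGC-1α values all lay within the range of the others, with a difference of -0.11 and an interval from -0.55 to 0.32 (limma adjusted p 0.843). Casp1 had levels of 0.06, -0.69, -0.91, -0.86 and -1.83 in the PGC-1αf/f mice and -0.06, -0.62, -0.29, -0.90 and -0.89 in the nPGC-1α mice. Its extremes were both PGC-1αf/f mice, replicates 1 and 5. The Casp1 difference was 0.29 with an interval from -0.37 to 0.96 (limma adjusted p 0.72), so changes of up to 1.94-fold higher were within the interval. It was 0.045 without PGC-1αf/f replicate 5 and 0.52 without PGC-1αf/f replicate 1.

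Tnf, the gene of tumour necrosis factor, was close to background. Probe A_51_P385099 was not well above background on any array and gives no fold. Its values lay between -9.71 and -8.35 in the PGC-1αf/f mice and between -8.94 and -5.84 in the nPGC-1α mice. Probe A_55_P2740937 was well above background in all 5 PGC-1αf/f mice, at -6.07, -6.41, -6.54, -6.29 and -6.69, and in 2 of the 5 nPGC-1α mice, where the levels were -5.61, -6.90, -5.83, -7.41 and -6.44. The 2 with detection were nPGC-1α replicates 1 and 5, and the values of replicates 2, 3 and 4 were not well above background. The nPGC-1α mice thus included the highest value, -5.61, which was detected, and the lowest, -7.41, which was not. The difference was -0.04 with an interval from -0.71 to 0.64 (limma adjusted p 0.97), and its sign turned under normexp correction with quantile normalisation (0.17), under quantile normalisation alone (0.08) and with the percentile taken without outlier spots (0.05).

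Il6, the gene of interleukin-6, was detected in some PGC-1αf/f mice only. Probe A_55_P1997756 was well above background in 3 PGC-1αf/f mice and in 0 nPGC-1α mice, and probe A_55_P2733612 in 2 and 0. The levels of the first probe were -6.86, -5.73, -6.52, -6.73 and -8.19 in the PGC-1αf/f mice and -7.31, -7.66, -8.04, -8.47 and -7.23 in the nPGC-1α mice. The mean of the brighter group lay below the mean detection limit of the nPGC-1α arrays, which were the noisier ones, so no fold is given. The second probe ranged from -9.54 to -6.68 in the PGC-1αf/f mice and from -8.62 to -6.86 in the nPGC-1α mice.

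**Figure D2:**
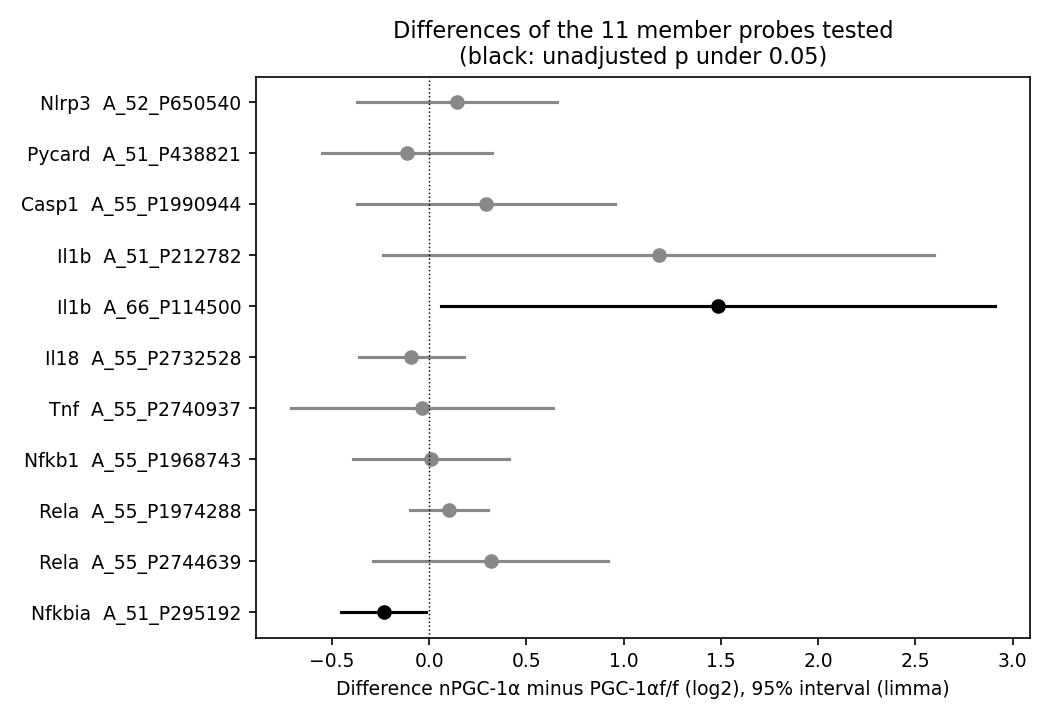
Difference between nPGC-1α and PGC-1αf/f mice (x axis, log2, nPGC-1α minus PGC-1αf/f) with its limma 95% interval for the 11 member probes tested, 5 arrays per group. The intervals of Il1b probe A_66_P114500 (0.06 to 2.91) and of Nfkbia (-0.45 to -0.02) leave out 0 before adjustment, and the Il1b intervals are the widest.

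Nfkbia, which encodes the inhibitor IκBα and is itself induced by NF-κB, had the lowest difference among the member probes tested. Its level was 2.02, 2.18, 2.19, 2.36 and 1.88 in the PGC-1αf/f mice and 1.96, 1.84, 1.92, 1.85 and 1.89 in the nPGC-1α mice. All 5 nPGC-1α mice lay below the PGC-1αf/f mean of 2.13 ± 0.18, close together around 1.89 ± 0.05 (SD, n = 5 each), and PGC-1αf/f replicate 5 lay among them. The difference was -0.23, or 1.18-fold lower, with an SE of 0.10 and an interval from -0.45 to -0.02 (limma p 0.0372, adjusted 0.387). The exact permutation p was 0.0317 and the exact Mann-Whitney p 0.0556. The call held without PGC-1αf/f replicate 1 or 5 or nPGC-1α replicate 1 and was lost without any 1 of the other 7 mice, with differences from -0.29 to -0.18. It was also lost under normexp with quantile normalisation (limma p 0.075), quantile normalisation (limma p 0.0556), median scaling (limma p 0.0571), the authors' log2 values (limma p 0.0523) and the 75th percentile without outlier spots (limma p 0.56). Within slide 1, where the groups lay in different rows, the difference was -0.30. On slide 2, with 1 mouse per group in the same row, it was 0.01. The part of array position was not tested.

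The NF-κB subunit genes showed small differences. Rela, which encodes the activating subunit p65, had levels of 1.19, 0.87, 0.85, 1.04 and 1.01 in the PGC-1αf/f mice and 1.24, 1.07, 1.08, 1.01 and 1.05 in the nPGC-1α mice by probe A_55_P1974288. All 5 nPGC-1α mice lay above the PGC-1αf/f mean, with a difference of 0.10 and an interval from -0.10 to 0.30 (limma adjusted p 0.678). The dim Rela probe A_55_P2744639 gave 0.32 with an interval from -0.29 to 0.92, and PGC-1αf/f replicate 5, at -7.41, stood apart from the others there. Without that mouse the difference was 0.026, and with values raised to the highest detection limit of any array it was 0.019. Nfkb1, which encodes p105 and the subunit p50 cut from it, had levels of -4.06, -3.76, -3.60, -3.70 and -4.64 in the PGC-1αf/f mice and -4.05, -3.81, -3.85, -3.86 and -4.13 in the nPGC-1α mice. The Nfkb1 values of the nPGC-1α mice lay inside the range of the PGC-1αf/f mice, the difference was 0.01 with an interval from -0.39 to 0.41 (limma adjusted p 0.986), and its sign turned to -0.16 without PGC-1αf/f replicate 5.

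Further genes of these pathways were taken from 4 lists, each gene by its brightest tested probe. Of 87 tested genes, 7 passed the unadjusted threshold in limma, 4 higher and 3 lower, and 0 passed after adjustment, where 8.21% of all genes passed before it. Beside the median of -0.02 over all 17597 genes, the list medians ranged from -0.07 to 0.03. Among the 82 genes well above background on all 10 arrays, 6 passed, 4 higher and 2 lower. Of the 7 genes, Mmp9 passed the unadjusted threshold under all 25 alternatives run for it. Tlr4 passed under 19 of 25, Socs3 under 15, Tnip1 under 14, Tnfaip3 under 10 and Il18bp under 8, and Nlrp1b under 22 of 24.

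Of 25 genes of inflammasomes and the interleukin-1 family, 22 were tested, with 0 higher and 2 lower and a median of -0.07. Nlrp1b, another inflammasome sensor, was at -5.61, -5.38, -6.01, -5.61 and -5.68 in the PGC-1αf/f mice and -5.98, -5.87, -7.09, -7.05 and -6.31 in the nPGC-1α mice. The probe was well above background in all 5 PGC-1αf/f mice but in 3 of the 5 nPGC-1α mice, so it passed the filter through the group where it is brighter and part of its difference of -0.80 (SE 0.25, limma p 0.00794, adjusted 0.257) rests on values under the detection limit. As an alternative, every value under -5.75, the highest detection limit of any array, was raised to -5.75. The Nlrp1b difference was then -0.14 and the call was lost (limma p 0.0506). This also raised values that were well above background on their own array. A second probe differed by -0.50. Il18bp, which encodes a secreted protein that binds and neutralises interleukin-18, differed by -0.30 (limma p 0.0456, adjusted 0.411), and a second probe by -0.15. Upward, the largest difference among genes detected on all 10 arrays was that of Il1r2, a decoy receptor for interleukin-1, at 0.49 (limma p 0.254).

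Of 35 genes of NF-κB subunits, inhibitors and upstream kinases, 34 were tested, with 2 higher and 1 lower and a median of 0.01. Tnfaip3, which encodes the ubiquitin-editing enzyme A20, and Tnip1, which encodes a protein that binds A20, both restrain NF-κB. Tnfaip3 was at -1.31, -1.79, -1.76, -1.60 and -1.14 in the PGC-1αf/f mice and -1.15, -1.35, -1.22, -1.27 and -1.09 in the nPGC-1α mice, a difference of 0.30 (limma p 0.0447, adjusted 0.408). Tnip1 was at 1.02, 0.70, 1.03, 1.09 and 1.09 in the PGC-1αf/f mice and 1.44, 1.17, 1.11, 1.25 and 1.15 in the nPGC-1α mice, and its groups did not overlap. The Tnip1 difference was 0.24 (limma p 0.0442, adjusted 0.407). Tlr4, the receptor for bacterial lipopolysaccharide, differed by -0.41 (limma p 0.0284, adjusted 0.36), with all 5 nPGC-1α mice below the PGC-1αf/f mean.

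All 12 genes of receptors and processing for tumour necrosis factor and interleukin-6 were tested, with 1 higher and 0 lower and a median of 0.03. Socs3, a feedback inhibitor of interleukin-6 receptor signalling, was at -1.12, -1.99, -2.40, -2.51 and -2.03 in the PGC-1αf/f mice and -0.86, -1.22, -0.72, -1.82 and -1.91 in the nPGC-1α mice. Its difference was 0.70 with an SE of 0.30 (limma p 0.0401, adjusted 0.396), and PGC-1αf/f replicate 1 lay above 3 of the nPGC-1α mice. Adam17, the protease that releases tumour necrosis factor from the cell surface, had the largest downward difference, at -0.27 (limma p 0.12).

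Of 22 NF-κB target genes, 19 were tested, with 1 higher and 0 lower and a median of -0.07. Mmp9, a matrix metalloproteinase stored by neutrophils, was at -4.75, -5.31, -5.50, -5.61 and -5.85 in the PGC-1αf/f mice and -3.99, -4.43, -3.64, -4.51 and -5.33 in the nPGC-1α mice, with 4 of the 5 nPGC-1α mice above every PGC-1αf/f mouse. Its difference was 1.02 with an SE of 0.30 (limma p 0.00567, adjusted 0.233), and a second probe differed by 0.94. The chemokine gene Ccl5 differed by -0.91 (limma p 0.0712). Saa3, an acute phase gene singled out after its values were seen, had the largest difference of the list, 1.72, but its levels in the PGC-1αf/f mice alone ran from -4.83 to -0.20 and it did not pass (limma p 0.125).

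**Figure D3:**
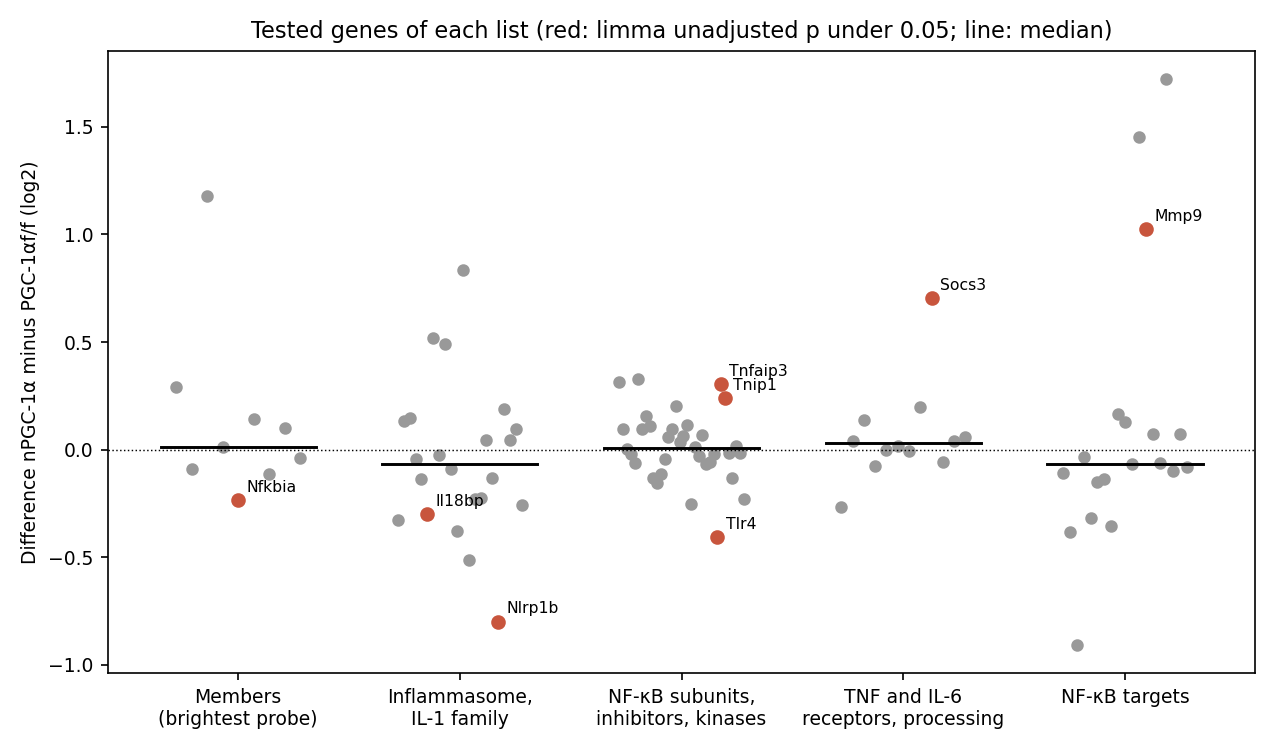
Difference between nPGC-1α and PGC-1αf/f mice (y axis, log2) for each tested gene of the members and of the 4 pathway lists (x axis), 1 point per gene, with list medians as lines. Most genes lie close to 0, the list medians lie between -0.07 and 0.03, and the named points passed the unadjusted limma threshold.

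The arrays with high Il1b were also high in some leukocyte transcripts and in some genes of other lists. For probe A_51_P212782 the highest 3 arrays were nPGC-1α replicates 3 and 1 and PGC-1αf/f replicate 1. These same 3 arrays were also the highest for Casp1, for Tnf probe A_55_P2740937 and for Rela probe A_55_P1974288, and for 1.31% of all 34000 probes. For Tnf, the value of nPGC-1α replicate 3, -5.83, was not well above background, so that rank rests partly on an undetected value. For Rela, nPGC-1α replicate 3 was at 1.081 and replicate 2, outside these 3 arrays, at 1.067. For the second Il1b probe, nPGC-1α replicate 2 took the place of PGC-1αf/f replicate 1 among the highest 3. The arrays were picked by their Il1b level, so this is a description. Outlier spots were 10.5% of gene spots on the array of PGC-1αf/f replicate 1 and 11.6% on that of nPGC-1α replicate 1. On the other arrays they were 0.19 to 4.75%. Without them the 75th percentile of these 2 arrays fell from 3882.93 to 2103.27 and from 4223.1 to 2152.84 units. The part of outlier spots in these ranks was not tested. Among neutrophil and monocyte markers with values on all 10 arrays, 3 of 7 had the same 3 highest arrays, namely S100a9, Camp and Retnlg. Aldh1l1 did so among astrocyte markers (1 of 5). Of the inflammasome list these were Mefv, Casp4 and Il1r2 (3 of 19). Of the receptor and processing list they were Tnfrsf1b and Socs3 (2 of 11), and of the NF-κB targets Nos2 and Saa3 (2 of 16). In the list of NF-κB subunits, inhibitors and kinases it was 0 of 31. S100a9, a granulocyte calcium-binding protein, was at 2.93, 1.78, 0.60, -0.68 and 2.05 in the PGC-1αf/f mice and 2.95, 2.26, 2.74, 1.15 and 1.83 in the nPGC-1α mice.

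All 8 neutrophil and monocyte markers were tested. For 7 of them the difference was above 0, with a median of 0.95. In limma, 2 passed the unadjusted threshold, where 8.21% of all genes passed, and 0 passed after adjustment. The 2 were Ngp with 1.87 (limma p 0.0186, adjusted 0.316) and Ltf with 1.60 (limma p 0.0441, adjusted 0.407). Ly6c2, the brightest of the list, differed by -0.17. The log2 of their summed signal was 2.86 to 4.53 in the PGC-1αf/f mice and 3.35 to 4.60 in the nPGC-1α mice (exact permutation p 0.262, adjusted 0.503 over 10 measures). The summed microglia markers ran from 4.78 to 5.15 and from 4.74 to 5.01, with 2 of 10 lower and 0 higher, and the summed border macrophage markers from 0.39 to 1.84 and from 1.03 to 1.64. In limma, 0 genes of the border macrophage, endothelial, astrocyte, choroid plexus and neuron lists passed the unadjusted threshold. The part of leukocyte transcripts in the Il1b, Casp1 and Mmp9 values was not tested.

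**Figure D4:**
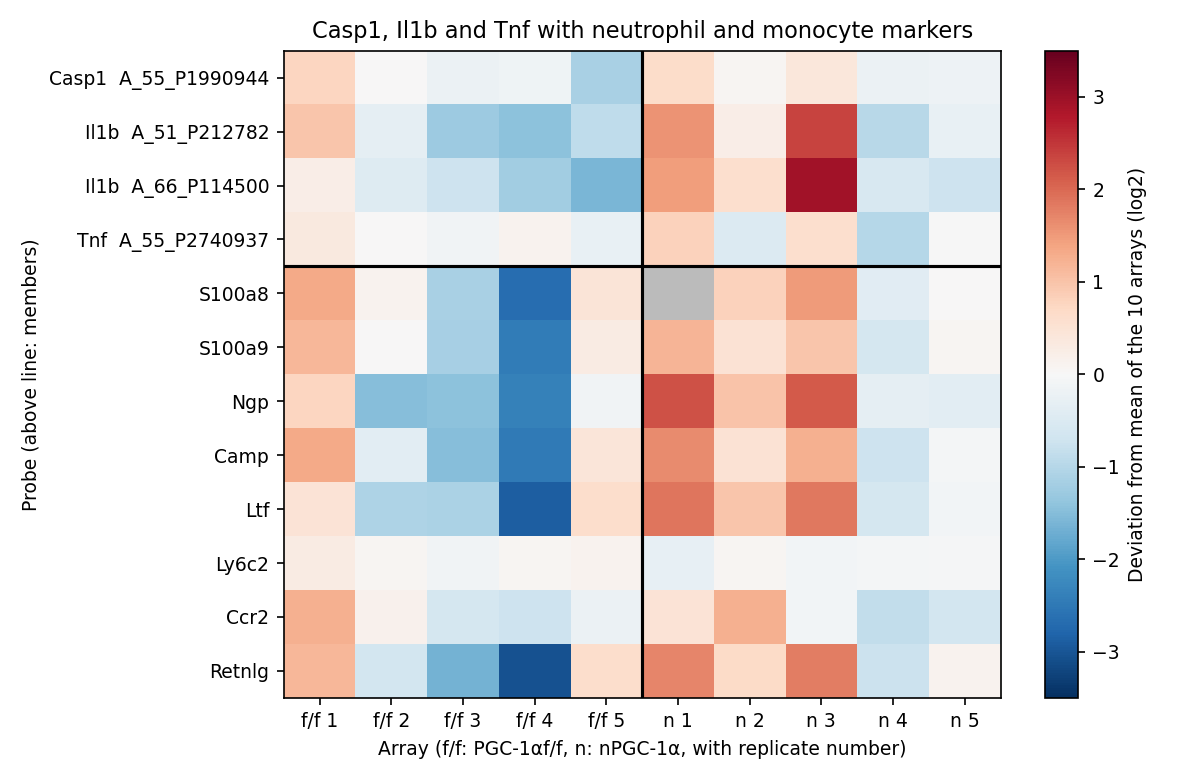
Deviation of each probe from its mean over the 10 arrays (colour, log2) for the tested probes of Casp1, Il1b and Tnf, above the line, and for neutrophil and monocyte markers, below it, on each array (x axis, f/f for PGC-1αf/f and n for nPGC-1α, with the replicate number). A grey cell marks a spot left out as an outlier, and nPGC-1α replicates 1 and 3 and replicate 1 of PGC-1αf/f are red for Il1b, Casp1 and S100a9, whereas PGC-1αf/f replicate 4 is blue for most markers.

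The same 3 arrays belong to the 4 on which all 4 Y-linked genes were detected. Among the other 6 arrays, Il1b by probe A_51_P212782 averaged -2.96 in 4 PGC-1αf/f mice, between -3.42 and -2.31, and -2.36 in 2 nPGC-1α mice. Among the 4 arrays with all of these genes it was -1.01 in 1 PGC-1αf/f mouse and averaged -0.75 in 3 nPGC-1α mice, between -2.23 and 0.38. With this class as a covariate the differences of the Il1b probes were 0.48 (limma p 0.359) and 0.99 (limma p 0.151), that of Casp1 was 0.028, and that of Nfkbia was -0.23 (limma p 0.0685).

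**Figure D5:**
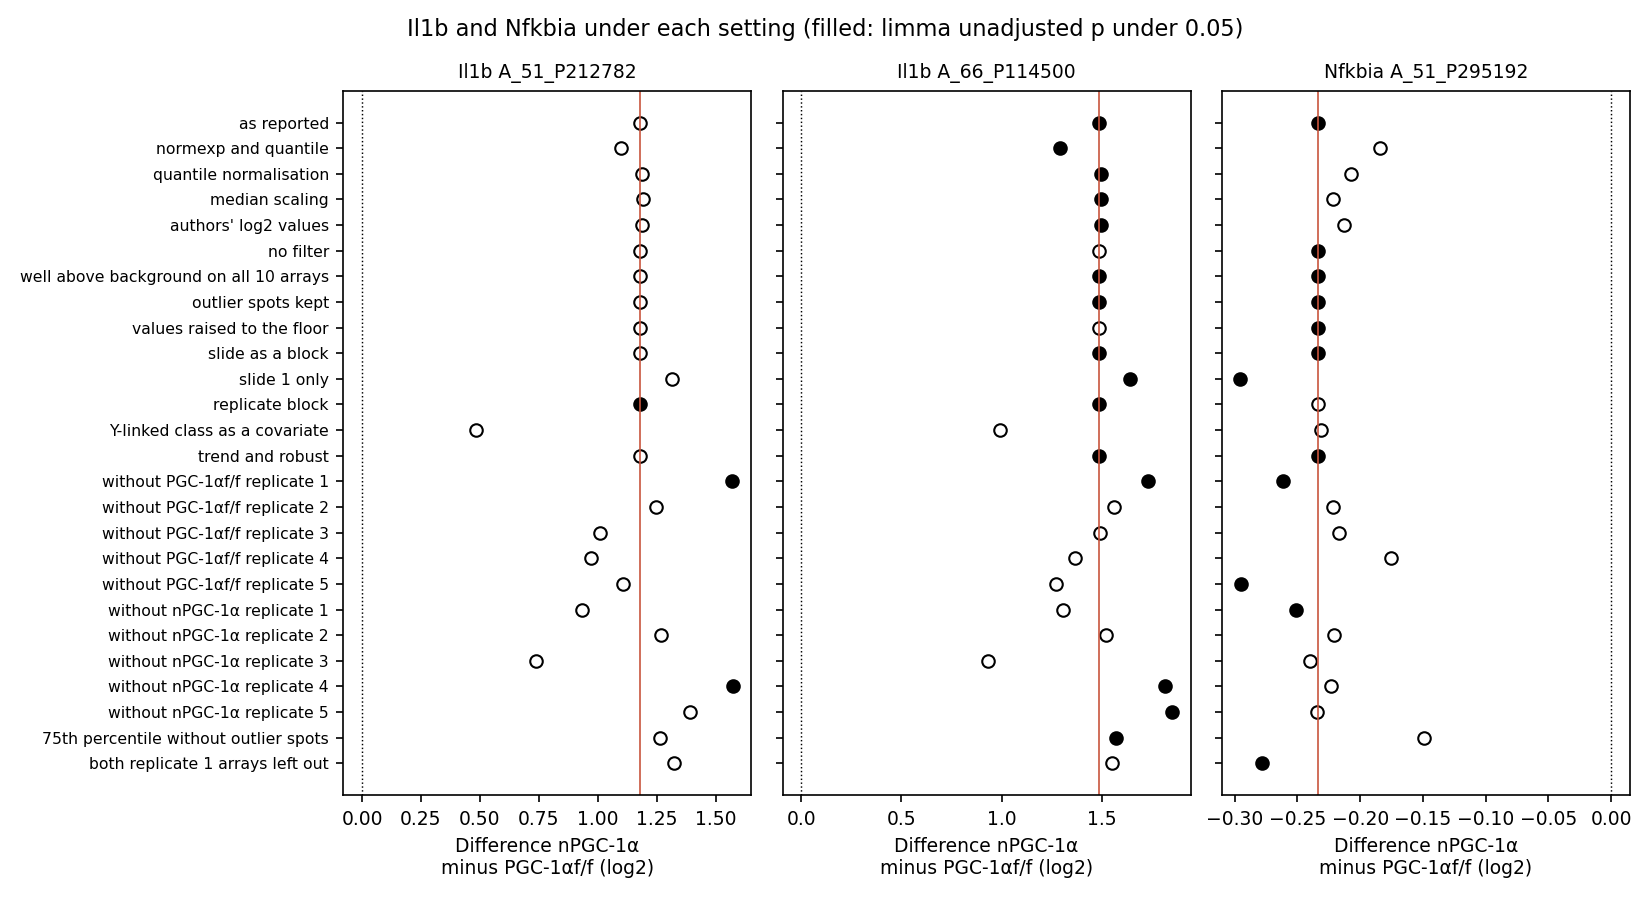
Difference between nPGC-1α and PGC-1αf/f mice (x axis, log2) for the Il1b probes and Nfkbia under each way of processing the arrays and without each array in turn (y axis), with filled points where the unadjusted limma p was under 0.05 and a red line at the value reported. The Il1b differences stay above 0, from 0.48 to 1.57 and from 0.93 to 1.85, and those of Nfkbia stay below 0, from -0.30 to -0.15.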

How the data were processed

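Agilent 1-colour mouse arrays were hybridised with hippocampal RNA, 5 of PGC-1αf/f mice and 5 of nPGC-1α mice, grouped by their labels. The deposited scanner files, written by Feature Extraction 11.5.1.1 per the file headers, hold an intensity per spot after background subtraction and detrending, not normalised between arrays. A deposited table of log2 values that the authors made for 41606 probes was used as an alternative. Its columns nearly share a median and a maximum, and how its probes were chosen is not given in the sources used here.

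The log2 of each processed intensity was averaged per probe and the log2 of the array's 75th percentile over its 59305 gene spots was subtracted. Control spots and outlier spots were left out of the probe values, and no spot was saturated. A probe was tested if either group had it well above background in all 5 mice, with at least 3 values in each group, which left 39142 probes. The two-sided moderated test of limma 3.58.1 (R 4.3.3) was fitted with no covariate, and p-values were adjusted by Benjamini-Hochberg over all of them. This filter can keep a probe detected in only 1 group. Single values were compared with exact permutation tests, two-sided, for which the smallest p with 5 against 5 is 0.00794. The number of arrays limits the precision.

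Symbols came from RefSeq accessions (GRCm38.p6), which named 33767 of 56605 probes (59.7%). The arrays were designed on another build, so coordinates are given only for the RefSeq promoter windows. Members, lists, tests and alternatives were chosen with earlier results of these data known. Named were all members, list genes past an unadjusted p of 0.05 (otherwise the largest difference in that direction among genes detected on all arrays), and marker summaries, and any other gene is stated as chosen later. Alternatives covered scaling, background, filters, blocks, and each array left out. Where values were raised to the floor, every value below -5.75, the highest detection limit of any array, was set to it. The test was checked on simulated data.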

Additional observations from a re-analysis of the deposited data

Results flagged for a closer look

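In groups of 5 arrays, a value was singled out where it stood far from the other 4. This held for 5 of 48 groups of values, where chance gives about 2.4. The dim Rela probe A_55_P2744639 was at -7.41 in PGC-1αf/f replicate 5 and at -6.06 to -5.78 in the other PGC-1αf/f mice. The summed astrocyte markers were at 4.65 in nPGC-1α replicate 5 and at 4.51 to 4.54 in the others of that group. The summed choroid plexus markers were at 4.03 in nPGC-1α replicate 3, the array with the highest Il1b, and at 0.69 to 1.17 in the others. The background noise was 8.98 signal units on the array of PGC-1αf/f replicate 1 against 5.16 to 6.14 in its group, and 20.9 on that of nPGC-1α replicate 3 against 10.71 to 13.45. The part of these arrays' noise or choroid plexus transcripts in the Il1b values was not tested.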

How the results depend on the processing

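No member probe passed an adjusted p of 0.05 under any of the 25 alternatives that give that count, and 2 passed the unadjusted threshold as reported. That count was 1 under normexp with quantile normalisation, quantile normalisation, median scaling, the authors' log2 values, values raised to the detection floor, the 75th percentile without outlier spots, and both replicate 1 arrays left out, the last 2 chosen after seeing the data. The Nfkbia call was the one lost under the other scalings and the authors' values. That of Il1b was lost with values raised to the floor, without both replicate 1 arrays or with no filter. With no filter the count was 3, namely Nfkbia lower, Il6 probe A_55_P1997756 lower and Tnf probe A_51_P385099 higher. That Il6 probe was well above background in 3 PGC-1αf/f and 0 nPGC-1α mice, and that Tnf probe on 0 arrays. The count was 0 with the Y-linked class as a covariate. It was 0 to 3 when 1 array was left out, with 0 without PGC-1αf/f replicate 2, 3 or 4 or nPGC-1α replicate 2 or 3. Of the further pathway genes 7 passed as reported, 11 with slide as a block, 11 by the mean of a gene's probes, 1 with the percentile taken without outlier spots, and 4 to 11 when 1 array was left out (4 without PGC-1αf/f replicate 2 or nPGC-1α replicate 3, 11 without nPGC-1α replicate 5). With the replicate number as a block, 2 member probes passed, both of Il1b (limma p 0.0468 for A_51_P212782), with Nfkbia at p 0.0538, and 13 pathway genes. The deviations of same-numbered arrays correlated at 0.0776 to 0.356 across 34000 probes. Replicate 2 had the lowest value, replicates 3 and 4 each correlated best with the other's number, and no label ties the numbers to a litter or day, so the numbers were not taken as pairs. The Il1b differences kept their sign under all 26 alternatives, with an unadjusted p of 0.027 to 0.359 and 0.0127 to 0.151, as did Nfkbia, with 0.00825 to 0.56. Signs turned for differences near 0. Nlrp3 ran from -0.055 (without PGC-1αf/f replicate 2) to 0.276 when 1 array was left out, and Pycard gave 0.0031 without both replicate 1 arrays. Tnf gave 0.17 under normexp with quantile normalisation, 0.083 under quantile normalisation, 0.027 with values raised to the floor, 0.047 with the percentile without outlier spots, and -0.24 to 0.21 when 1 array was left out, above 0 without PGC-1αf/f replicate 1 or nPGC-1α replicate 2 or 4. Nfkb1 gave -0.11 on slide 1 and -0.16 to 0.097 when 1 array was left out, below 0 without PGC-1αf/f replicate 1 or 5 or nPGC-1α replicate 2, 3 or 4. The cause was not tested. Signal over background limits Nlrp3, Tnf, Il6 and the dim Rela probe.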
